A study of Drosophila melanogaster with 2 samples.

Results

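The genes described here are 10 Drosophila genes that Shavenbaby, the somatic protein of the ovo locus, is known to regulate. They were given as a list of names that uses no measured value as a criterion, although the list was drawn up with earlier results of these data known. All 10 were found among the 13945 protein-coding genes of the 6 chromosome arms. Ovo-GFP binding was mapped at them by ChIP-seq, in which chromatin is sheared, precipitated with an antibody and sequenced. The chromatin came from whole adult female flies of a transgenic line that stably carries Ovo with GFP at its C terminus, was broken by sonication and was precipitated with an antibody against GFP. There was 1 group, with 2 biological replicates numbered 1 and 4, and the age of the flies is given as unknown. The labels do not say which promoter or which Ovo isoform the transgene uses, and no tissue was separated, so binding in few cells and weak binding in many cells cannot be told apart.

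The ovo locus makes germline proteins, which act in the female germline, and Shavenbaby, which acts in the epidermis. Germline Ovo and Shavenbaby share the C-terminal zinc fingers that read DNA and therefore the same core site. In epidermal cells that form denticles or hairs, Shavenbaby is known to switch on genes that rebuild the apical cell surface. One set encodes proteins with a zona pellucida (ZP) domain, which build the apical extracellular matrix: m (miniature), dyl (dusky-like), tyn (trynity), nyo (nyobe), neo (neyo) and cyr (cypher). The other set shapes actin and the hair: f (forked, an actin-bundling protein), sn (singed, the fly fascin), mwh (multiple wing hairs, which limits where hairs start) and sha (shavenoid, needed for hair outgrowth).

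The sequences around the summits that carry the results are shown first. A summit is the position of highest enrichment in a peak. Each of the first 5 sequences covers 101 bases centred on a summit, on the plus strand of dm6, and none touches an annotated UTR. Capitals mark the Ovo and Shavenbaby core site TAACNGT or its reverse complement ACNGTTA. The intron of tyn at chrX:154306-154406 held the highest-scoring summit in any of the 10 gene bodies, with 1 core site. The sn intron at chrX:7968372-7968472 and the stretch upstream of sn at chrX:7959525-7959625 held 1 core site each. The f intron at chrX:17245069-17245169 also held 1 core site, at a summit below the threshold of the authors' list. The cyr intron at chrX:8131990-8132090 held none, although its summit was above that threshold.
tyn intron: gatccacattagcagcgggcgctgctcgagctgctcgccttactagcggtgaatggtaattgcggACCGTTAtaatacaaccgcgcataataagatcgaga
sn intron: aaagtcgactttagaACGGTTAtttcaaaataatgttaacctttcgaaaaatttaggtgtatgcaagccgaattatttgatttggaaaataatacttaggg
upstream of sn: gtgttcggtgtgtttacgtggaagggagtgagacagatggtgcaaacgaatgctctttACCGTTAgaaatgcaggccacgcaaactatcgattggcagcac
f intron: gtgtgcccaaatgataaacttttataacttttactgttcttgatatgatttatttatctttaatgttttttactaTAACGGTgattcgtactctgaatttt
cyr intron: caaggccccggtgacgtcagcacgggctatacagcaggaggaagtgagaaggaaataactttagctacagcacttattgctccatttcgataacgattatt

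The next 7 sequences are the core sites within 500 bp of the transcription start sites (TSSs) of m and dyl, in windows of 30 bases on the strand of the gene. They are shown because these promoters hold several core sites and no Ovo-GFP summit near them in the pooled list. The m sites lie at chrX:11754214-11754243, chrX:11754306-11754335 and chrX:11754498-11754527 on the plus strand. The dyl sites lie on the minus strand, at chr3L:4299629-4299658, chr3L:4299372-4299401, chr3L:4299336-4299365 and chr3L:4299162-4299191.
m site at -45: tgctgttcccgACAGTTAcattacgaggcc
m site at +47: gctgctgctgcTAACGGTcgtgatcggtga
m site at +239: cactgcctgttACCGTTActtgcttaagct
dyl site at -139: aaaaacagagagACAGTTAgggtaaagaag
dyl site at +118: cgcttttgggccACTGTTAagccgatggcc
dyl site at +154: tgctagagtgcgACTGTTAaacgtaaggaa
dyl site at +328: tgctagcggagtACTGTTAtagtgaaaata

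The authors deposited 4 peak lists on dm6. The relaxed lists of replicate 1, of replicate 4 and of both together (the pooled list) hold 30000 peaks each and contain peaks and background. The thresholded list holds 4477 peaks and is identical to the best 4477 of the pooled list. It was made by comparing peak ranks between replicates. Scores are the authors' enrichment values against a control. Scores and ranks describe peaks within 1 list, and rank 1 is the highest score. Of the thresholded summits, 63.7% lay within 500 bp of a TSS of any protein-coding gene, against 31.5% of the pooled summits. The peak at ovo itself, a known target of Ovo, scored 385.23 at rank 132 of the thresholded list. The peak at otu, another known target, scored 121.59 at rank 2079. No read counts were used, so the depth of each replicate is unknown.

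None of the 10 genes had a thresholded Ovo-GFP summit at a promoter, taken as 500 bp to either side of any of its TSSs. A count of 0 of 10 allows a share of up to 30.8% (95% Clopper-Pearson interval, counting of genes only), and the share over all protein-coding genes was 23.5%, which lies inside that interval. In the gene body, 3 of the 10 genes had a thresholded summit (tyn, cyr and sn, 95% interval 6.67% to 65.2%), against 13.0% of all genes. In the gene body or within 10 kb of it, 4 of the 10 had one (the same 3 and dyl, 95% interval 12.2% to 73.8%), against 62.2% of all genes. By set, the counts at a TSS were 0 of 6 ZP genes and 0 of 4 actin and hair genes, and those in the gene body 2 of 6 and 1 of 4.

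The 10 genes are long, and genes of matched length were not compared. Their lengths ran from 6.67 kb (neo) to 60.3 kb (tyn), with a median of 18.9 kb against 2.17 kb over all protein-coding genes. Per length, the gene bodies of the 10 held 0.121 thresholded summits per 10 kb, from 3 summits in 248 kb (exact 95% Poisson interval 0.0249 to 0.353). Over all gene bodies the density was 0.314 per 10 kb, inside that interval. In the pooled list the 10 gene bodies held 56 summits, or 2.26 per 10 kb (interval 1.7 to 2.93), against 2.43 per 10 kb over all gene bodies.

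**Figure D1:**
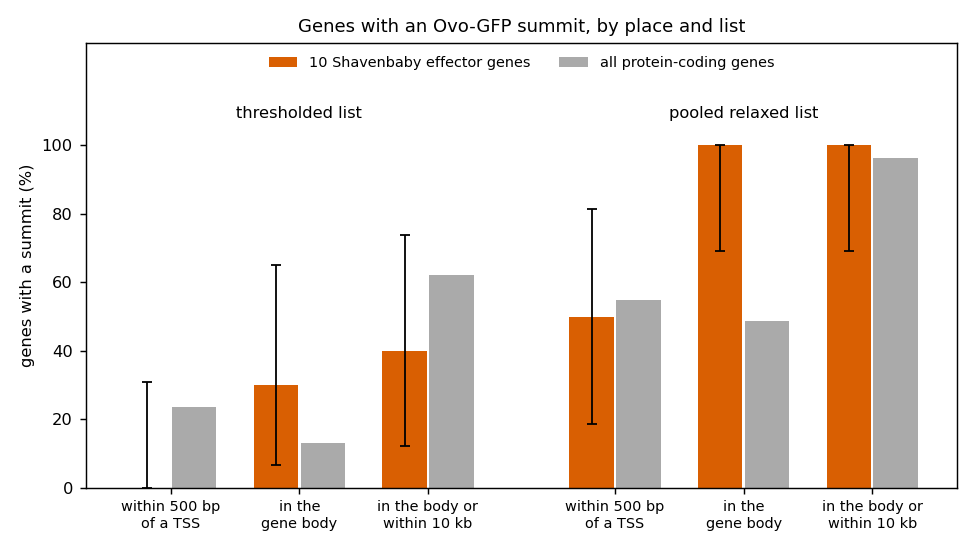
Percentage of genes with an Ovo-GFP summit within 500 bp of a TSS, in the gene body, and in the body or within 10 kb, for the 10 Shavenbaby effector genes (orange, with 95% Clopper-Pearson intervals) and for all 13945 protein-coding genes (grey), in the thresholded list at left and the pooled list at right. At the TSS in the thresholded list the bar of the 10 genes is at 0, and in the pooled list all 10 have a summit in the gene body.

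The 10 thresholded summits in or within 10 kb of these genes all lay nearest to the TSS of another gene. How often this holds in the same spans of other genes was not counted. Of the 10 summits, 6 were within 500 bp of another gene's TSS and 4 were farther than 500 bp from any TSS. The one farthest from any TSS was in tyn, which encodes a ZP protein of the apical matrix. That summit, at base 154356 of chromosome X (peak 154136 to 154575), lay in intron 3 of the 8 introns of the transcript tyn-RE, an intron of 52755 bp. It was 11503 bp downstream of the nearest tyn TSS and 5930 bp from the TSS of CG17707, a gene inside tyn. Its score was 151.75, rank 1385 of the thresholded list. In replicate 1 its score was 62.18 (rank 1652), and in replicate 4 it was 86.61 (rank 1401). The ranks of both replicates were thus inside the best 4477, and the core site shown above was 18 bp from the summit.

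At sn, which encodes the actin bundler that stiffens bristles and hairs, the thresholded summits belonged by position to sws, a neighbour that overlaps sn and is transcribed towards lower coordinates. The summit at base 7968422 of chromosome X lay in intron 1 of sn-RG, an intron of 18198 bp, and 186 bp upstream of a sws TSS. It scored 79.96 and ranked 4079 in the thresholded list, 3264 in replicate 1 and 3953 in replicate 4. The summit at base 7959575 lay 4449 bp upstream of the first sn TSS and 206 bp upstream of another sws TSS. It scored 156.09 and ranked 1309 in the thresholded list, 1513 in replicate 1 and 1481 in replicate 4. Each of these summits had a core site within 50 bp, the sequences shown above.

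In the gene body and 10 kb around it, cyr, another ZP gene, had the most summits, 6 thresholded and 23 pooled. The thresholded summit in its body, at base 8132040 of chromosome X, scored 107.41 and ranked 2583 in the thresholded list, 2288 in replicate 1 and 2909 in replicate 4. It lay in intron 1 of cyr-RB and 245 bp upstream of CG10958, a gene inside cyr. The other 5 thresholded summits were outside cyr, inside or at its neighbours. The best of them, at base 8141672, was 607 bp into Smox, which encodes a signal transducer of the activin pathway. It scored 386.17, ranked 130 in the thresholded list, 102 in replicate 1 and 170 in replicate 4, and had a core site. A further Smox summit had rank 686, and one at CG17982 had rank 1471. The 2 summits in Gclc, which encodes the catalytic subunit of glutamate-cysteine ligase, had ranks 4372 and 4433, near the end of the list, and differed between replicates. The first had rank 1841 in replicate 1 and 8491 in replicate 4, and the other had rank 13132 in replicate 1 and 3212 in replicate 4.

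At dyl, a ZP gene needed for the shape of denticles and bristles, the 1 thresholded summit was 5740 bp upstream of the gene and 25 bp upstream of the Claspin TSS. Claspin encodes a protein of the replication checkpoint. The summit, at base 4313458 of chromosome 3L, scored 137.08 and ranked 1683 in the thresholded list, 1831 in replicate 1 and 1809 in replicate 4.

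**Figure D2:**
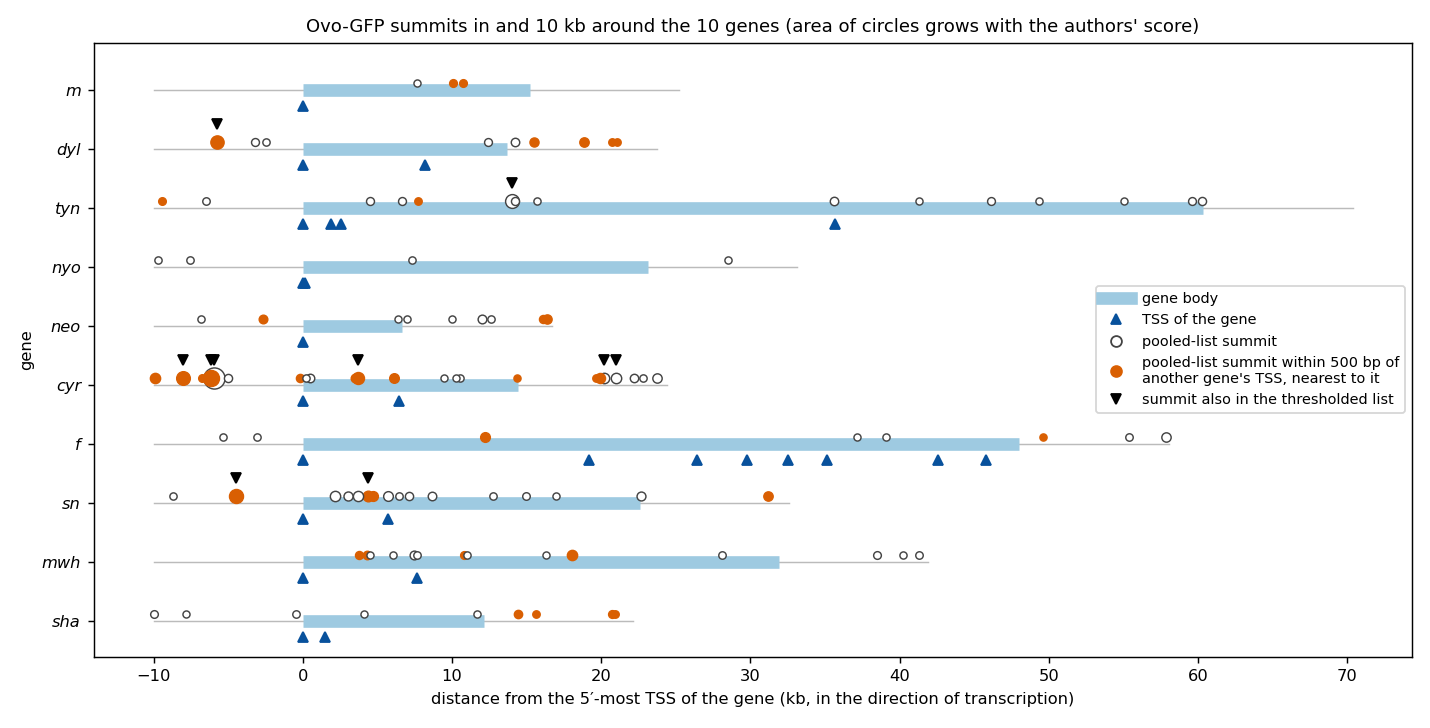
Positions of pooled-list summits (circles, area growing with the authors' score) in and 10 kb around the 10 genes, in kb from the 5'-most TSS in the direction of transcription, with gene bodies in blue and TSSs of the gene as blue triangles. Filled orange circles are summits within 500 bp of another gene's TSS and nearest to it, and black triangles mark the 10 summits that are also thresholded, none of which stands at a blue triangle.

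The 6 genes without a thresholded summit in these spans were m, nyo, neo, f, mwh and sha. The nearest thresholded summit to one of their TSSs was at 13461 bp for f (at Fim), 16104 bp for neo (at Etfb), 16528 bp for sha (at CG7745), 33937 bp for m (at Tango10), 34317 bp for mwh (at bab2) and 45376 bp for nyo (at CG1635). The distance runs to any of their TSSs, and the genes in parentheses own the TSS nearest to the summit.

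The relaxed lists showed what lay below the threshold. The last thresholded peak had a score of 74.87 and the first below it 74.85. Among the summits in these gene bodies, the sn intron summit at rank 4079 was the last inside the list. Just outside were a further sn intron summit at rank 4518 (score 74.29) and the best mwh summit at rank 4653 (score 72.77). The mwh summit had rank 4698 in replicate 1 and 4504 in replicate 4. It lay in an mwh intron, 115 bp upstream of LysP, 1 of 7 other genes whose TSSs lie inside mwh.

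At the TSS itself, 5 of the 10 genes had a pooled summit (tyn, cyr, sn, mwh and sha), against 54.8% of all genes. The best of these was at sn, 8 bp downstream of its second TSS, scoring 62.31 at rank 5799. Its ranks were 6258 in replicate 1 and 7207 in replicate 4. At cyr the best had rank 6055, with no match within 100 bp in replicate 1 and rank 12538 in replicate 4. It was also 241 bp upstream of CG2116. Upstream of the same cyr TSS, replicate 1 had a summit at 174 bp (rank 11189) and replicate 4 at 171 bp (rank 5709). Both were farther than 100 bp from the pooled summit. At mwh the best had rank 8457 (rank 7376 in replicate 1 and 16950 in replicate 4). At tyn it had rank 9911 (20288 in replicate 1 and 8367 in replicate 4), and at sha rank 19753 (28818 in replicate 1 and 18378 in replicate 4). The median best rank was 8457 over these 5 genes, against 5586.5 over the 7644 genes with a pooled summit at a TSS.

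The replicates differed in which of the remaining genes had a summit at a TSS. The list of replicate 1 had one at 6 of the 10 genes (those 5 and f), against 54.8% of all genes in that list. The list of replicate 4 also had one at 6 of the 10 (those 5 and dyl), against 53.8%. In none of the pooled and replicate lists was there a summit within 500 bp of a TSS of m, nyo or neo, which are 3 of the 6 ZP genes. The share of all genes without one in any of these lists was not counted.

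All 10 genes had a pooled summit in the gene body, against 48.7% of all genes. The density per length is given above. The number of body summits ran from 1 (dyl, nyo and neo) to 13 (tyn). By density, cyr was highest with 6.24 pooled summits per 10 kb, then sn with 5.31 (12 summits) and mwh with 3.45 (11 summits), and nyo was lowest with 0.432. Over the 10 genes, 30 of the 56 body summits (53.6%) were nearest to the TSS of another gene, such as sws in sn or CG10958 and CG2116 in cyr. This share was not counted over all gene bodies. The list of replicate 1 had a body summit in 9 of the 10 genes (not in nyo), against 50.7% of all genes, and that of replicate 4 in 9 (not in sha), against 47.6%. In the gene body or within 10 kb, all 10 genes had a pooled summit, against 96.2% of all genes, and also one in the list of replicate 1 (96.5% of all genes) and of replicate 4 (96.8%).

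The best summit in the body of f scored 62.28 and ranked 5805 in the pooled list, 7074 in replicate 1 and 5619 in replicate 4. It was 118 bp upstream of CG8915, a gene inside f, with the core site shown above 28 bp away. The best in m had rank 15492, 242 bp downstream of the TSS of CG9360, a gene inside m. The best body summit had rank 14018 in dyl, 23186 in nyo, 26054 in sha and 29468 in neo. Those of dyl, nyo and neo were matched within 100 bp in replicate 4 alone, at ranks 9427, 14209 and 21147, and that of sha in neither replicate. The other pooled body summit of sha, at rank 28453, was matched in replicate 1 alone, at rank 11907.

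**Figure D3:**
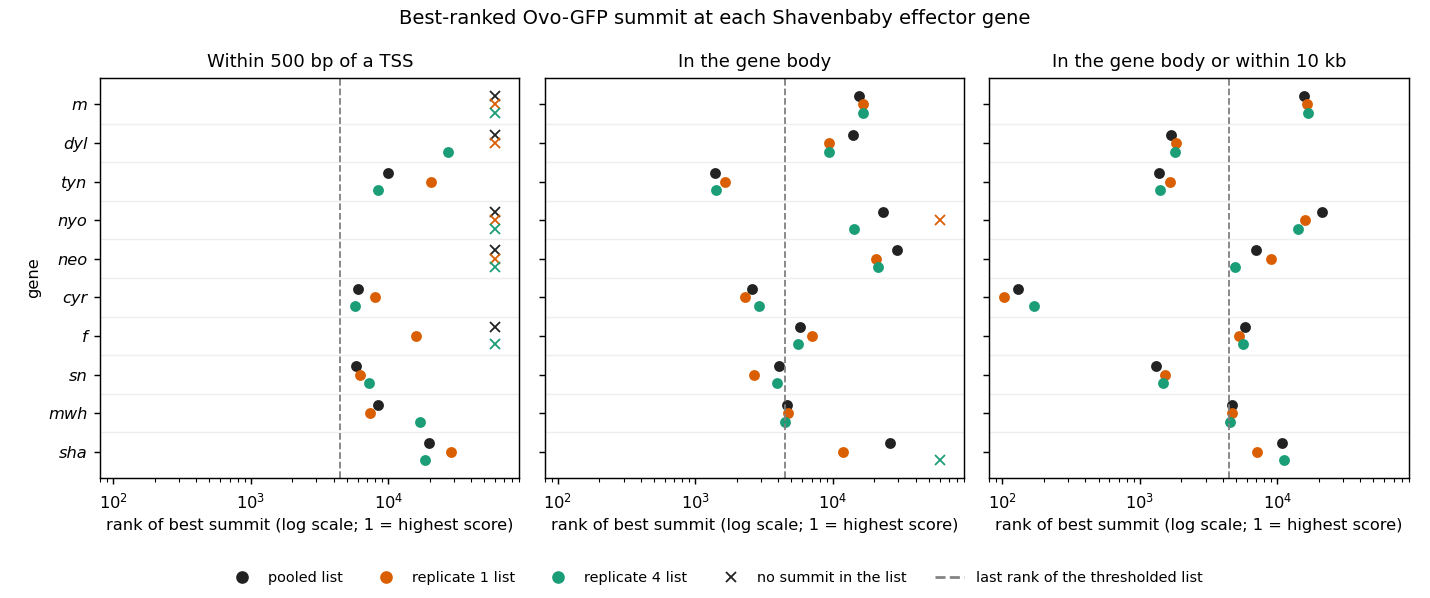
Rank of the best summit (log scale, 1 = highest score) at each of the 10 genes within 500 bp of a TSS, in the gene body, and in the body or within 10 kb, in the pooled list (black), the replicate 1 list (orange) and the replicate 4 list (green). Crosses at the right mark lists with no summit, and the dashed line is rank 4477, the end of the thresholded list: at the TSS no gene has a point left of it in any list.

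Of the 111 pooled summits in or within 10 kb of the 10 genes, 80 (72.1%) were nearest to the TSS of another gene. The same share over the spans of all genes was not counted. A TSS of the 10 genes lay within 500 bp of 9 of the 111 summits. For 38, the TSS of another gene lay within 500 bp and was nearer, some of the 9 included. The other 66 lay farther than 500 bp from any TSS. Of the 111, 41 (36.9%) had a summit within 100 bp in the lists of both replicates, against 40.6% of all pooled summits. Below the threshold the shares were 31 of 101 (30.7%) at the 10 genes and 31.6% over all.

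Both strands were searched for the core site TAACNGT and for CTAANGT, which has the same letters in another order. The 10 gene bodies held 136 TAACNGT sites, or 5.48 per 10 kb, against 2.84 over all gene bodies. For CTAANGT the densities were 3.06 per 10 kb in the 10 genes and 2.89 over all gene bodies. Some sites lie in repeats. The body of mwh holds an annotated copy of the 412 transposon of 7591 bp, with no pooled summit. Among the sites in this copy, 5, each readable on both strands, form a cluster over 87 bp. A further 24 annotated transposable elements lie in tyn. With annotated transposable elements left out and overlapping sites counted once, the density was 4.93 per 10 kb in the 10 genes and 2.63 over all gene bodies. It was highest in neo (10.5) and dyl (9.48) and lowest in cyr (2.77). The genes with most sites per length were therefore not those with most summits per length. With 1 pooled body summit each, neo had 1.5 and dyl 0.729 per 10 kb, and cyr had the highest summit density (6.24).

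Near the TSSs, the share of genes with a core site and the share with several were higher in the 10 genes than over all genes. At least 1 core site within 500 bp of a TSS was found in 7 of the 10 genes (dyl, f, m, mwh, neo, sha and sn), against 33.3% of all genes. At least 3 were found in 5 of the 10 (dyl, f, m, mwh and sha), against 2.97% of all genes. By single TSS, 10 of 26 (38.5%) had a core site at the 10 genes, against 29.8% of 19607. A CTAANGT site was found in 4 of the 10 genes (f, mwh, nyo and sha), against 29.5% of all genes. By single TSS the CTAANGT shares were 19.2% and 25.1%. The number of TSSs ran from 1 in m, with 3 core sites, to 8 in f, also with 3 core sites. All 4 dyl core sites were at 1 of its 2 TSSs. Genes of equal TSS number were not compared.

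None of the 19 core sites at these TSSs lay within 50 bp of a summit of the thresholded list, the pooled list or the list of replicate 1. In the list of replicate 4 there was 1 such site (5.26%), against 14.6% of the core sites at all TSSs: the dyl site at +154 was 42 bp from a summit of rank 27383. In the thresholded and the pooled list, a count of 0 of 19 allows a share of up to 17.6% (95% Clopper-Pearson interval). The interval takes the 19 sites as independent, although several share a promoter and a pair at sha overlaps on the opposite strands. Of the 5728 core sites at all TSSs, 8.52% were near a thresholded summit and 15.5% near a pooled one, both inside that interval. The 3 sites at the m promoter were 7432 bp or more from the nearest pooled summit, and the 4 at dyl 3879 bp or more. The nearest were at mwh, where a site 399 bp downstream of the second TSS was 370 bp from a summit of rank 19813, and at sn, where a site at -419 from the second TSS was 427 bp from the summit of rank 5799.

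In the gene bodies and 10 kb around them, 12 of 224 core sites (5.36%) were within 50 bp of a pooled summit, against 4.81% of the 40421 sites on the 6 arms. For the thresholded list the counts were 4 of 224 (1.79%) and 2.0% over the arms. For CTAANGT, 3 of 117 sites (2.56%) were near a pooled summit, against 1.81% over the arms. The same 3 were near a thresholded summit, against 0.332% over the arms. These 3 sites lay 1 each at the thresholded intron summits of tyn, cyr and sn, and those of tyn and sn are the summits that also hold a core site. Seen from the summits, 4 of the 10 thresholded summits had a core site within 50 bp (1 at tyn, 1 at Smox beside cyr and 2 at sws beside and inside sn), against 14.5% of all thresholded summits. Of the pooled summits, 11 of 111 (9.91%) had one, against 5.31% of all. Of the 12 sites near a pooled summit, 6 were in the sn region.

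**Figure D4:**
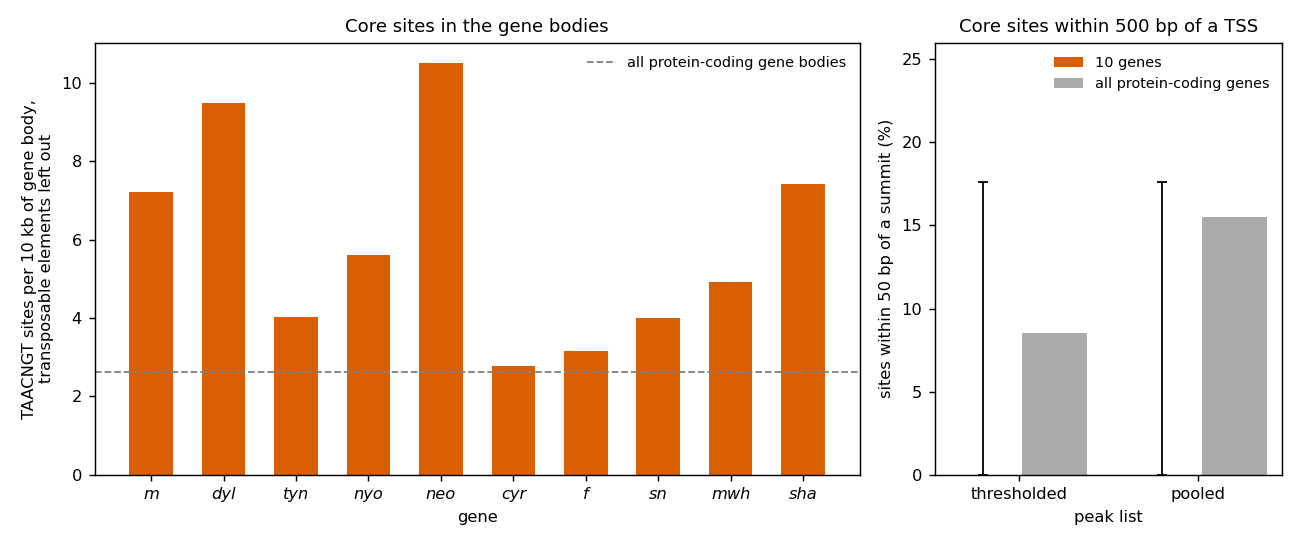
Left, TAACNGT sites per 10 kb of gene body in each of the 10 genes, with annotated transposable elements left out and overlapping sites counted once, and the value over all protein-coding gene bodies as a dashed line at 2.63. Right, percentage of core sites within 500 bp of a TSS that lie within 50 bp of a summit, for the 10 genes (orange, 0 of 19 in each list, with 95% Clopper-Pearson intervals) and for all protein-coding genes (grey).

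Other genes of the same processes are given beside the 10, as counts of genes with a thresholded summit at a TSS (500 bp to either side), where the share over all genes was 23.5%. Among 18 other actin and hair genes 7 had one. The highest scores were at sqh, the myosin regulatory light chain (237.41), chic, the fly profilin (232.71), cpa, a subunit of the actin capping protein (176.61), and DAAM, a formin (170.21). The formin gene capu had none there. Among 12 cuticle and pigment genes 3 had one: mmy, which makes the sugar nucleotide for chitin (98.33), and rtv (87.99) and knk (84.73), which organise chitin. Ddc, which makes dopamine for cuticle hardening, had none. Among 7 other ZP genes 1 had one, qsm (90.13), and dp (dumpy) had none. Among 8 regulators and partners of Shavenbaby 2 had one, ovo itself (385.23) and Ubc6 (80.09), which acts with Ubr3 in the processing of Shavenbaby. The Sox gene D (Dichaete) had none. Over the 10 Shavenbaby effector genes the count was 0.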

How the data were processed

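Peak calls of 2 ChIP-seq replicates were used on dm6. Per the text record among the deposited files, the authors called the relaxed lists against a control alignment and made the thresholded list with the irreproducible discovery rate procedure. The caller and its settings were not given in the sources used here. The deposited score of each peak is the authors' enrichment value and was used within a list only. The lists on dm3 were not used here, nor was a control precipitation analysed. Depth is unknown, so intervals (95%) cover the counting of genes, sites or summits, and the precision that depth gives cannot be stated.

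The reference was the Release 6 genome with the Ensembl release 115 annotation. A gene had a summit where one lay within 500 bp of a TSS, in its body, or within 10 kb of it. Summits of different lists were matched within 100 bp. Sites counted as near a summit within 50 bp. Computation used Python 3.11.15 with pandas 2.3.3, numpy 2.4.6 and scipy 1.17.1, tested on simulated peaks. With 1 group, no test between conditions was made. All 10 genes were named with their thresholded summits or otherwise their best pooled ones, other genes where they own the nearest TSS, and from each list at most the 4 highest scores at a TSS and the first in the alphabet without one. The genes and lists were chosen with earlier results of these data known. The symbol dp was matched by hand to dpy. Alternatives were other windows, flanks and thresholds, any base of a peak in place of the summit, and each replicate alone.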

Additional observations from a re-analysis of the deposited data

How the results depend on the processing

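The count of genes with a thresholded summit at a TSS was 0 in every alternative (lowest and highest value 0). With windows of 100 bp and 1000 bp, the shares over all genes were 11.7% and 26.4%. With any base of the peak the share was 25.0%, and with the 1000 peaks of highest score 6.19%. Without replicate 1 it was 23.4%, and without replicate 4 22.7%. With the 1000 peaks of highest score, 0 of the 10 genes had a summit in the body, against 3.94% of all genes, and 1 had one in the body or within 10 kb, against 25.7%. The thresholded summits in these spans then numbered 2. They numbered 3 with flanks of 2 kb and 4 with flanks of 5 kb, which follows from the smaller span. With a TSS window of 100 bp, 3 genes had a pooled summit at a TSS, against 29.0% of all genes. Without replicate 1 or replicate 4, the peaks of the other replicate alone were used. The count in the body was then 3 each time, against 12.7% and 13.4% of all genes. In the body or within 10 kb it was 4 each time, against 62.2% and 61.3%. For relaxed summits at a TSS it was 6 each time, against 53.8% and 54.8%. The thresholded summits in these spans numbered 11 to 12. Without replicate 1, 9 of 224 core sites (4.02%) were near a relaxed summit, against 4.62% over the arms. Without replicate 4 there were 8 (3.57%), against 4.51%. Both shares were thus below those over the arms, unlike in the pooled list. Of the alternatives chosen after seeing the data, counting overlapping sites once left 11 core sites near a pooled summit, against 4.66% over the arms. Leaving out the tyn region, and with it the repeat beside tyn, gave 11 of 164 core sites, against 4.81%. With a distance of 100 bp from the summit, 15 of 224 core sites were near a pooled summit. That is a lower share than the 8.06% over the arms at this distance. The counts of the remaining alternatives stayed within 1.5 times the reported counts.

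With 10 genes, intervals of shares are wide. The lists give no read depth, so a missing summit says that none was listed, not that Ovo-GFP was absent. No paired analysis was possible because the 2 replicates form 1 group. The repeat beside tyn held 0 core sites near a pooled summit, and the 412 copy in mwh held 0 pooled summits.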

Other observations

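The 10 kb downstream of tyn held 31 TAACNGT sites, 27 of them on the plus strand. The median gap between plus-strand sites was 357 bp, and 24 of 26 gaps were within 2 bp of it, so the sites belong to a tandem repeat. No pooled summit lay in these 10 kb.

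The cluster of 5 sites over 87 bp in the 412 element of mwh was found 21 times on the 6 arms, each time in an annotated transposable element. The smallest distance from one of these clusters to a pooled summit was 3209 bp. Over the arms there were 39 clusters of 5 or more sites within 100 bp, 34 of them in annotated transposable elements, and 0 had a pooled summit within 50 bp. Whether reads from these repeats were kept in the authors' lists was not tested.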
